A study of Mus musculus with 16 samples.

Results

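The loci of 5 transcription factors of mesenchymal cells, Twist1, Prrx1, Snai2, Runx2 and Tead1, were examined for H3K4me1, a histone mark of enhancers and of the flanks of promoters. The members are all H3K4me1 summits, the highest points of called peaks, inside 5 fixed mm9 intervals named after these genes. Of 161656 summits in both lists, 151 lay in these intervals: 106 of the 81860 summits of 3T3 cells, an established mouse fibroblast line, and 45 of the 79796 summits of mouse dendritic cells. The series holds 16 samples, of 3 histone antibodies and input DNA in both cell types with and without a stimulus, and the H3K4me1 lists of the 2 unstimulated samples were used. The other 14 samples were not analysed here.

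The dendritic cells, a culture of antigen-presenting cells from bone marrow, were grown from progenitors in SCF, IL-3 and IL-6, infected with a retrovirus that carries a hairpin against JmjD2d, a histone demethylase, and selected in histidinol. They were then differentiated for 4 days in GM-CSF with SCF and for 4 days in GM-CSF alone, and were left unstimulated. The 3T3 cells were grown under standard conditions, with no hairpin named in the labels, and were unstimulated too. The cell type and the hairpin therefore cannot be told apart. The cell type field of the 3T3 sample names dendritic cells, whereas its title and description name 3T3, which was followed. Each summit comes with a score, read here as peak height. Each cell type is 1 library, so no value has a replicate error and no p-value is given. Intervals are 95% and cover counting error only. They take summits as independent, although neighbouring summits can belong to 1 marked domain.

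H3K4me1 is written by the MLL3 and MLL4 methyltransferases and lies at enhancers that are active or primed for use, so the places it occupies differ between cell types. The genes encode factors that shape connective tissue. Twist1 is a basic helix-loop-helix protein that binds E-boxes and is needed for head and limb mesenchyme. Snai2, also called Slug, is a zinc finger repressor that binds E-boxes of epithelial genes such as that of E-cadherin. Prrx1 is a paired-related homeodomain protein of limb and face mesenchyme. Runx2 is the Runt-domain protein required for bone-forming cells, and it is also expressed in some blood cells, plasmacytoid dendritic cells among them. Tead1 is a TEA-domain protein, the DNA-binding partner of the coactivators YAP and TAZ.

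The intervals lie on chromosome 12 from 34550000 to 34800000 for Twist1 (250 kb) and on chromosome 1 from 165120000 to 165350000 for Prrx1 (230 kb). That of Snai2 is on chromosome 16 from 14650000 to 14800000 (150 kb), that of Runx2 on chromosome 17 from 44600000 to 45000000 (400 kb), and that of Tead1 on chromosome 7 from 119780000 to 120080000 (300 kb). The gene table used is of GRCm38 and not of mm9, so no summit is placed in an exon, intron or promoter. In that table the nearest protein-coding neighbours of the named genes are Ferd3l and Hdac9 for Twist1, Mroh9 and Gorab for Prrx1, Clic5 and Supt3 for Runx2, and Parva and Rassf10 for Tead1. On one side of Snai2 the table lists Efcab1. Whether a summit belongs to the named gene or to a neighbour was not tested.

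Promoter sequences, the 250 bases before the transcription start in RefSeq, were found for 3 of the 5 genes, Prrx1, Runx2 and Twist1, and are shown because they carry, or lack, the recognition letters of the same families of factors. They are from GRCm38.p6 and cannot be set against the mm9 summits. Capitals mark matches on either strand to CANNTG (E-box), CAGGTG (a form of it), TGTGGT (Runt), GGAATG (TEAD) or TAATTA (homeodomain).

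Prrx1: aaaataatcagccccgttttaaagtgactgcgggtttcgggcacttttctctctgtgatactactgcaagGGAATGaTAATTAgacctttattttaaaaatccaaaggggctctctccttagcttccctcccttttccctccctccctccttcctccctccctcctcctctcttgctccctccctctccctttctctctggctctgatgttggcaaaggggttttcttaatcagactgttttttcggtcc
Runx2: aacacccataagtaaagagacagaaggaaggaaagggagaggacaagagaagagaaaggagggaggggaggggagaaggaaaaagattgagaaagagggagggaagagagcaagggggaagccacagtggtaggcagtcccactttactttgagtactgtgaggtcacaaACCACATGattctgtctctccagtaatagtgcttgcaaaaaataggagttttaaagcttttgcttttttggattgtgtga
Twist1: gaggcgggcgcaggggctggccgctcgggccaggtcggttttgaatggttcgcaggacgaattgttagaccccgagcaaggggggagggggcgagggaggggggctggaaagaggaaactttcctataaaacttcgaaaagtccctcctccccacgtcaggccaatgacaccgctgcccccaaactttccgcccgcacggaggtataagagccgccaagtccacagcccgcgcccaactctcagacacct

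The Prrx1 promoter (chr1:163313651-163313900, minus strand) holds GGAATG, the letters bound by TEAD proteins, starting 180 bases before the start, and TAATTA, a homeodomain core, starting 173 bases before it. The Runx2 promoter (chr17:44814628-44814877, minus strand) holds ACCACA, the reverse complement of the Runt letters, which overlaps the E-box CACATG. In the Twist1 promoter (chr12:33957421-33957670, plus strand) none of these letters was found, and its GC content of 62.4% was the highest of the 3. Among 32851 promoters of the table, 66.2% held CANNTG, 17.2% CAGGTG, 14.0% TGTGGT, 12.6% GGAATG and 4.84% TAATTA. These matches describe sequence and show no binding.

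Across the 5 loci together, 3T3 cells had more summits than dendritic cells, and the loci differed widely in how many more. The 106 3T3 summits made 7.97 per 100 kb (6.53 to 9.64), against 3.10 over the whole 3T3 list. The 45 dendritic cell summits made 3.38 per 100 kb (2.47 to 4.53), against 3.03 over their list. The 3T3 density was thus above that of its list, and the interval of the dendritic cell density included that of its own. The latter rests on Runx2, which held 30 of the 45 dendritic cell summits. Without Runx2 the dendritic cell density was 1.61 (0.90 to 2.66), below that of its list, and the 3T3 density 6.77 (5.21 to 8.67), still above. The whole-list densities are per 100 kb of chromosomes 1 to 19 and X up to the last summit, unmappable stretches included.

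Tead1 and Twist1 had the most one-sided counts. The Tead1 locus had 34 3T3 summits and 4 dendritic cell summits, the Twist1 locus 8 and 1, the Snai2 locus 5 and 1, the Prrx1 locus 16 and 9, and the Runx2 locus 43 and 30. Relative to the ratio of the whole lists, the log2 ratio of 3T3 to dendritic cell counts was 3.05 at Tead1 (1.56 to 5.01) and 2.96 at Twist1 (0.06 to 8.43). At Snai2 it was 2.29 (-0.87 to 7.85), at Prrx1 0.79 (-0.47 to 2.15) and at Runx2 0.48 (-0.22 to 1.21). The intervals of these last 3 loci include 0, so a difference from the lists was not detectable there. Snai2 had 6 summits in all, whereas Runx2 had the most summits and a small ratio. Among the top-scoring 39898 summits of each list the counts of 3T3 and dendritic cells were 19 and 2 at Tead1, 5 and 1 at Twist1, 14 and 3 at Prrx1, 22 and 18 at Runx2, and 1 and 1 at Snai2. The excess at Snai2 was thus made of low-scoring summits. Over all 5 loci the value was 1.20 (0.68 to 1.74). It was 2.03 (1.20 to 2.95) without Runx2 and 0.78 without Tead1.

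The chromosomes of the loci took unequal shares of the 2 lists. Without the locus itself, chromosome 12 stood at -0.48 relative to the lists, chromosome 7 at -0.32, chromosome 1 at -0.26, chromosome 16 at -0.11 and chromosome 17 at 0.04. Relative to the rest of its own chromosome, the log2 ratio was 3.44 at Twist1, 3.37 at Tead1, 2.40 at Snai2, 1.06 at Prrx1 and 0.44 at Runx2. At each locus but Runx2 it was thus larger against the chromosome than against the lists, and what sets it was not tested.

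**Figure D1:**
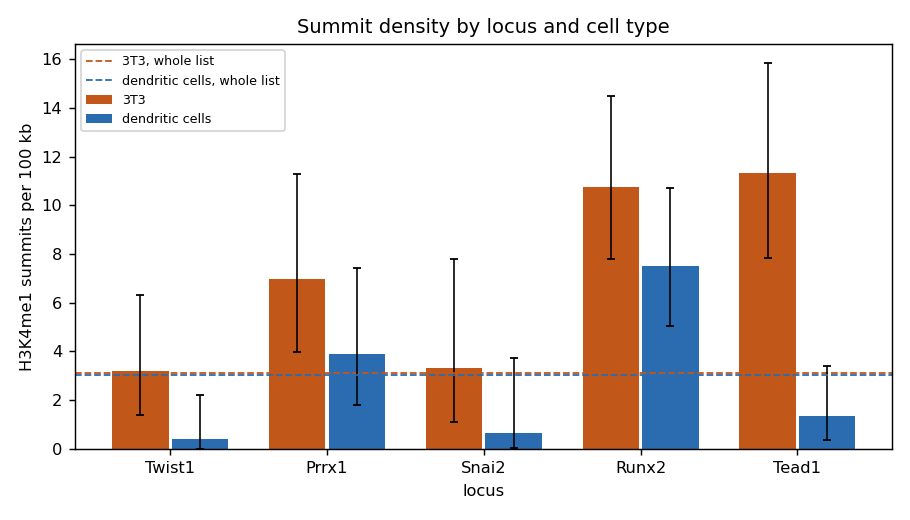
Summits per 100 kb in each locus (bars; 1 library per cell type) with exact Poisson 95% intervals, which cover counting error only; dashed lines give the density over each whole list. In 3T3 the bars of Tead1 (11.3) and Runx2 (10.8) stand far above the dashed line and those of Twist1 (3.20) and Snai2 (3.33) near it; in dendritic cells Runx2 (7.50) is the highest bar.

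The 3T3 density did not set all 5 loci apart from the genome. The order of the 3T3 densities was Tead1 with 11.3 per 100 kb (7.85 to 15.8), Runx2 with 10.8 (7.78 to 14.5), Prrx1 with 6.96 (3.98 to 11.3), Snai2 with 3.33 (1.08 to 7.78) and Twist1 with 3.20 (1.38 to 6.31). The intervals of each pair of neighbours in that order overlap, and those of Snai2 and Twist1 include the density of the whole list. In dendritic cells the order was Runx2 with 7.50 (5.06 to 10.7), Prrx1 with 3.91 (1.79 to 7.43), Tead1 with 1.33 (0.36 to 3.41), Snai2 with 0.67 (0.02 to 3.71) and Twist1 with 0.40 (0.01 to 2.23). The dendritic cell intervals of Twist1 and Runx2 excluded the 3.03 of their list, and those of Prrx1, Tead1 and Snai2 included it. Twist1 thus had a 3T3 density near that of its list and a dendritic cell density below that of its own. Yet a count of at most 1 dendritic cell summit was not rare, as the windows below show. Runx2 stood above the average in both cells. At Snai2 a shortage of dendritic cell summits was not detectable.

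As a background, the genome was tiled in windows of the length of each locus, and windows with any summit were kept. At least 34 3T3 summits and at most 4 dendritic cell summits were found in 21 of 6668 windows of 300 kb (0.315%). The values for the other loci were 1.36% for Runx2 (71 of 5220 windows), 6.10% for Prrx1 (510 of 8367), 6.80% for Twist1 (529 of 7784) and 10.3% for Snai2 (1232 of 12016). The 3T3 count alone was reached by 2.77% of windows for Tead1, 3.18% for Runx2, 25.1% for Prrx1, 55.1% for Twist1 and 57.2% for Snai2. The dendritic cell count at Runx2 was reached by 19.2% of windows. The one-sidedness by itself was less rare. Among windows with at least 5 summits, a 3T3 share as high as that of the locus was found in 11.4% for Tead1 (620 of 5440), 12.3% for Twist1, 15.2% for Snai2, 26.5% for Prrx1 and 32.5% for Runx2. At most 4 dendritic cell summits, as at Tead1, were held by 36.8% of windows of 300 kb. At most 1, as at Twist1, was held by 25.4% of windows of 250 kb. Tead1 thus stood out by a high 3T3 count joined with a dendritic cell count that was not rare by itself, and less by its 3T3 share. Windows include gene deserts and are not replicates.

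**Figure D2:**
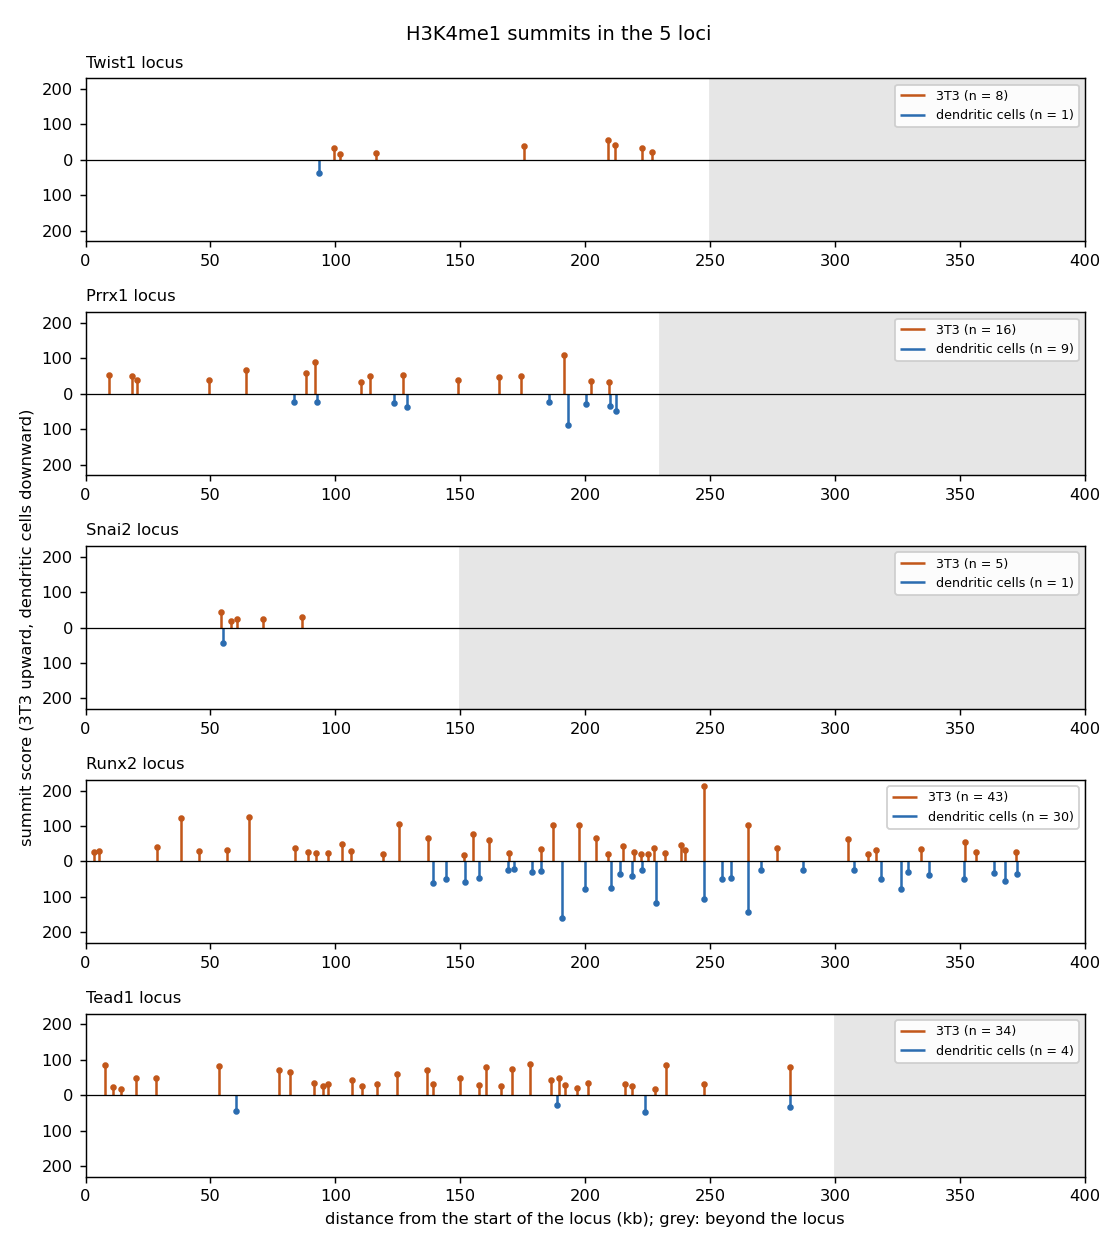
Every summit of the 5 loci by distance from the start of its locus (kb), with its score upward for 3T3 and downward for dendritic cells; scores are not scaled between the lists, and the grey area lies beyond the locus. The Tead1 panel is filled with 3T3 summits and has 4 of dendritic cells, whereas the Runx2 panel has a left part with 3T3 summits alone and a right part with both.

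Twist1, the basic helix-loop-helix gene, had its 3T3 summits on one side of its lone dendritic cell summit. That dendritic cell summit lay at 34643404 with a score of 37, near the median of its list (36). The lowest, median and highest of the 8 3T3 scores were 18, 35 and 56, against a list median of 33. The 3T3 summits formed a group of 3 (34649474, 34651694 and 34666351, with scores of 35, 18 and 20), a lone summit at 34725556 with a score of 40, and a group of 4 from 34759269 to 34776827. The highest, 56, was at 34759269 and was followed at 34761940 by the next, 42. No 3T3 summit was called in the 93.4 kb of the locus below the dendritic cell summit.

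None of the Twist1 summits was shared between the cell types, where shared means that a summit of the other list lies within 1000 bp. Over the whole lists, 70.2% of 3T3 and 69.4% of dendritic cell summits were not shared. The interval for the 8 3T3 summits, 63.1 to 100%, includes the 70.2%. The dendritic cell summit was 6070 bp from the nearest 3T3 summit. Of the 8 3T3 summits, 6 were over 20 kb from any dendritic cell summit, against 25.0% of the 3T3 list. The 8 belonged to a stretch of 12 3T3 summits from 34649474 to 34863653 with no dendritic cell summit between them. Stretches of 12 or more made up 1.47% of the 40059 such 3T3 stretches of the genome. Each stretch counts once in this share whatever its length, and the one taken is the longest that touches the locus. Here and at the other loci, long stretches therefore look rarer than they would by the summits they hold.

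At Prrx1, the homeodomain gene, 3T3 summits were high within their list, and a shift of the 9 dendritic cell scores was not detectable. The 16 3T3 scores ran from 32 over a median of 49 to 109, and 14 of them (87.5%) exceeded the list median of 33, against 48.9% of the whole list. The 9 dendritic cell scores ran from 22 over a median of 30 to 88, and 2 of them (22.2%) exceeded their list median of 36, likewise against 48.9%. Scores of the lists have no common scale, so each is read within its own list.

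The highest Prrx1 summits of both cells lay close together without being shared. The 3T3 summit at 165311659 scored 109, a score reached by 3.08% of the 3T3 list. It was 1297 bp from the dendritic cell summit at 165312956, which scored 88, a score reached by 7.19% of that list. The next 3T3 summits were those at 165211789 (score 89) and 165184235 (score 66), and the next of dendritic cells those at 165332474 (score 50) and 165248777 (score 36). The other dendritic cell summits, at 165203489, 165212784, 165243524, 165305696, 165320467 and 165329840, scored 23, 23, 25, 22, 30 and 35. Below the first of them the locus held 5 3T3 summits with a median score of 49. These ended a stretch of 18 3T3 summits that began outside the locus at 164723081 and held no dendritic cell summit. Stretches of at least that number made up 0.819% of all 3T3 stretches.

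Snai2, the E-box-binding repressor, had the fewest summits. The 5 3T3 summits lay at 14704203, 14708292, 14710641, 14720955 and 14736520, with scores of 43, 20, 23, 23 and 29. The dendritic cell summit, at 14704986, scored 43 and lay 783 bp from the highest 3T3 summit, so that this site was shared. In both lists it was the highest of the locus and above its list median. The other 4 3T3 summits scored below the list median of 33.

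These 4 opened a long 3T3 stretch beyond the locus. It ran from 14708292 to 15550417 and held 44 3T3 summits and no dendritic cell summit over 842 kb. Stretches of 44 or more made up 0.132% of the 3T3 stretches (53 of 40059), each counted once whatever its length. With 40 of its 44 summits outside the interval, this stretch describes the neighbourhood of the locus more than the locus.

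Runx2 was marked in both cells over most of its interval and in 3T3 alone at one end. Between 44600000 and the first dendritic cell summit at 44739083 there were 16 3T3 summits over 139 kb. Just below the border, at 44595796, lay a dendritic cell summit with a score of 52. The 3T3 part is thus a gap of 143 kb between dendritic cell summits. From the summit at 44739083 to the last one at 44972739, over 234 kb, 27 3T3 and 30 dendritic cell summits were interspersed. In the remaining 27.3 kb neither cell had a summit. The 16 summits of the 3T3 part had a median score of 30.5, below the list median of 33. They included 3 of the highest decile, which holds 9.71% of the list. These were at 44638265 (score 124), 44665438 (score 125) and 44725517 (score 106). The 16 were part of a stretch of 17 3T3 summits, and stretches of 17 or more made up 0.889% of all.

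The highest summits of the whole set were at Runx2. The 3T3 summit at 44847659 scored 213, which 0.103% of the 3T3 list reached. A dendritic cell summit 8 bp away, at 44847651, scored 106. The highest dendritic cell summit, at 44790918, scored 160, which 0.262% of its list reached, and its nearest 3T3 summit was 3724 bp away with a score of 102. The next dendritic cell summits were at 44865169 (score 142), 129 bp from a 3T3 counterpart that scored 103, and at 44828221 (score 118), 535 bp from a 3T3 counterpart that scored 39. High summits of the lists thus coincided at some Runx2 sites and stood apart at others. The lowest, median and highest scores were 18, 35 and 213 in 3T3 and 20, 46.5 and 160 in dendritic cells.

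Tead1, the partner of YAP and TAZ, had a dense row of 3T3 summits with few of dendritic cells. The lowest, median and highest 3T3 scores were 17, 38.5 and 88, and 6 of 34 (17.6%) were in the highest decile of the list, against 9.71% of all 3T3 summits. The highest were at 119958059 (score 88), 119787994 (score 86) and 120012275 (score 85). The 4 dendritic cell summits, at 119840343, 119968910, 120003910 and 120062056, scored 44, 26, 47 and 33. None of them was in the highest decile of its list, which holds 9.80% of that list, too small a share for 4 summits to show a shortage. Their median of 38.5 was close to the list median of 36.

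The dendritic cell summits cut the Tead1 row into stretches of 3T3 summits. Between the first and the second lay 18 3T3 summits over 109 kb, then 6 up to the third and 4 up to the last. Below the first, 6 3T3 summits of the locus belonged to a stretch of 33 that began at 119552159, and 0.272% of all 3T3 stretches were that long or longer. In 3T3 neighbouring summits were a median of 5959 bp apart, against 9167 bp over the list. At Runx2 the median was 6467 bp in 3T3 and 6929 bp in dendritic cells, whose list median was 8173 bp. Neighbours at Prrx1 were farther apart in 3T3, at 13357 bp.

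Dendritic cell summits formed no long stretches at the loci. The longest row of them with no 3T3 summit between was 3 at Prrx1 and at Runx2, 2 at Tead1 and 1 at Twist1 and Snai2. Of the 40052 dendritic cell stretches of the genome, 20.1% held 3 or more. The row at Prrx1 ran from 165329840 to 165374255, past the border of the locus. At Runx2 there were 3 such rows, from 44854878 to 44865169 and from 44918312 to 44929201 inside the locus and from 44972739 to 45073534 past its border.

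**Figure D3:**
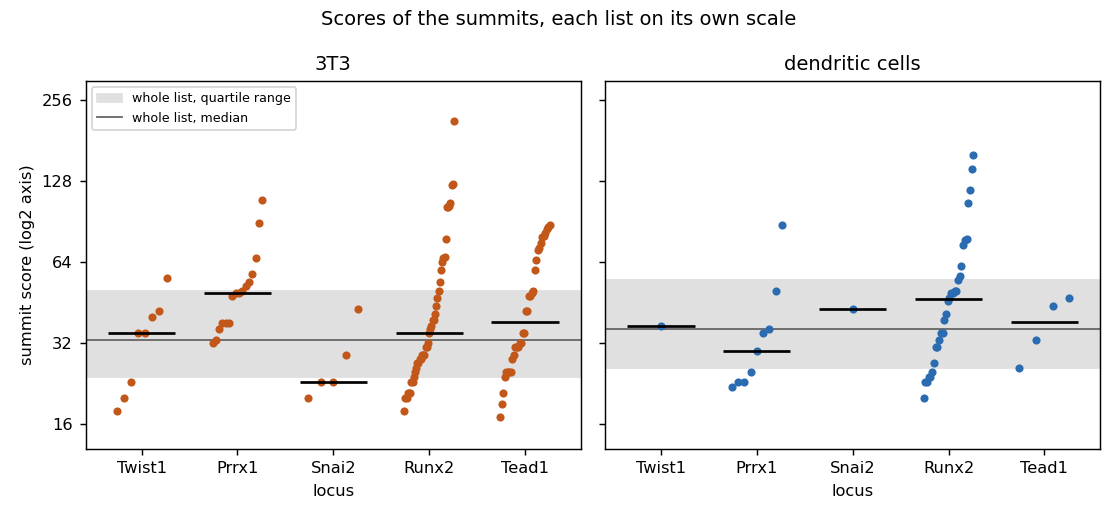
Score of every summit (log2 axis) by locus, spread sideways by rank, for 3T3 on the left and dendritic cells on the right; black bars are medians, and the grey band and line give the quartile range and the median of the whole list. The Prrx1 medians lie above the list median in 3T3 (49 against 33) and, for 9 summits only, below it in dendritic cells (30 against 36).

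Over the 5 loci, scores were spread as in the lists or somewhat higher. The 3T3 median was 37.5 against 33, with 61 of 106 summits (57.5%) above the list median and 16 (15.1%) in the highest decile, against 48.9 and 9.71% of the list. In dendritic cells the median was 39 against 36, with 24 of 45 (53.3%) above the list median and 5 (11.1%) in the highest decile, against 48.9 and 9.80%. The dendritic cell shares are near those of the list. Of these 16 top-decile 3T3 summits 8 were at Runx2, with 6 at Tead1, 2 at Prrx1 and none at Twist1 or Snai2.

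Within 1000 bp, most summits of the loci lacked a counterpart in the other cell type, and the share was above that of the list for 3T3 and near it for dendritic cells. No dendritic cell summit was called within 1000 bp of 91 of the 106 3T3 summits (85.8%, 77.7 to 91.9), against 70.2% of the whole list. The share was 94.1% at Tead1 (32 of 34; 80.3 to 99.3), 87.5% at Prrx1 (14 of 16; 61.7 to 98.4) and 76.7% at Runx2 (33 of 43; 61.4 to 88.2). It was 8 of 8 at Twist1 and 4 of 5 at Snai2. Without Runx2 the share was 92.1% (82.4 to 97.4). The intervals of Prrx1, Runx2, Twist1 and Snai2 include the share of the list, each by itself. In the reverse direction, 30 of the 45 dendritic cell summits (66.7%, 51.05 to 80.0) lacked a 3T3 counterpart, near the 69.4% of the list.

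At larger distances the contrast was wider. Over 20 kb from any dendritic cell summit were 44 of 106 3T3 summits (41.5%), against 25.0% of the list. In the reverse direction it was 0 of 45, against 15.6% of the dendritic cell list. The farthest dendritic cell summit, at 44887006 in the Runx2 locus, was 10245 bp from a 3T3 summit, and the farthest 3T3 summit, at 34772698 in the Twist1 locus, was 129294 bp from a dendritic cell summit. Within 5 kb of a summit of the other cell were 34 of the 45 in dendritic cells (75.6%) and 37 of the 106 in 3T3 (34.9%), against 59.3 and 56.1% of the lists. These distances, and the shares within 1000 bp given before, move with the density of the other list. In these loci it was 7.97 per 100 kb for 3T3 and 3.38 for dendritic cells, and that part was not tested.

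**Figure D4:**
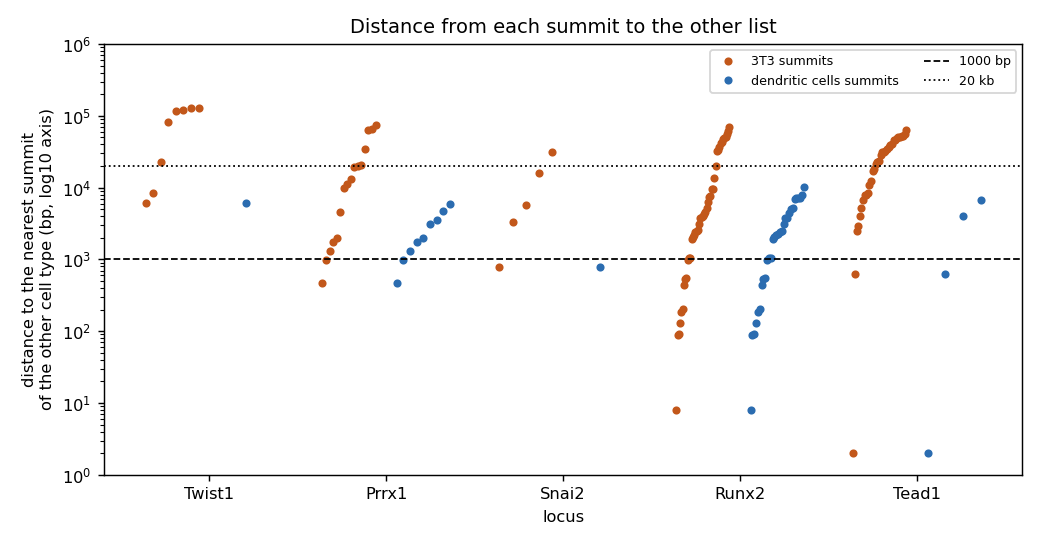
Distance from every summit to the nearest summit of the other cell type (bp, log10 axis) by locus, spread sideways by rank, with lines at 1000 bp and 20 kb. All dendritic cell points lie below 20 kb, and 44 of the 106 3T3 points lie above it, 20 of them at Tead1 and 11 at Runx2.

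There were 15 shared sites, pairs of mutually nearest summits within 1000 bp: 10 at Runx2, 2 each at Prrx1 and Tead1, 1 at Snai2 and none at Twist1. At each pair the 3T3 score was divided by the dendritic cell score, and this ratio by its median over the 24378 pairs of the genome. The median of the 15 log2 values was 0.00, with a range from -1.54 to 2.07. In 4 pairs the ratio favoured 3T3 by 2-fold or more, against 11.9% of all pairs, and in 2 it favoured dendritic cells by as much, against 11.6%. The order-statistic 95% interval of the median ran from -0.34 to 1.07, so the pairs as a set do not fix a direction. Of the 5 pairs outside Runx2, 3 were at least 2-fold toward 3T3 and none toward dendritic cells.

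Both Tead1 pairs were higher in 3T3, and the strongest Runx2 pairs went either way. At Tead1, summits 2 bp apart scored 79 in 3T3 (120062054) and 33 in dendritic cells (120062056), a relative ratio of 2.61-fold. The other Tead1 pair, 623 bp apart, scored 50 and 26, or 2.09-fold. At Runx2 the pair at 44847659 and 44847651 was 2.19-fold higher in 3T3. The pair with 18 in 3T3 (44751499) and 57 in dendritic cells (44751943) was 2.91-fold higher in dendritic cells, and that at 44827686 and 44828221 2.78-fold. The other 7 Runx2 pairs differed by less than 2-fold, with log2 values from -0.48 at the pair of 44818616 to 0.50 at that of 44782442. Summits of these pairs were between 88 and 978 bp apart. The largest ratio, 4.21-fold toward 3T3, was at Prrx1 (89 at 165211789 and 23 at 165212784), where the summits were 995 bp apart, near the limit for a pair. The other Prrx1 pair, with scores of 32 and 35, and the Snai2 pair, with 43 in both, had log2 values of -0.01 and 0.12.

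**Figure D5:**
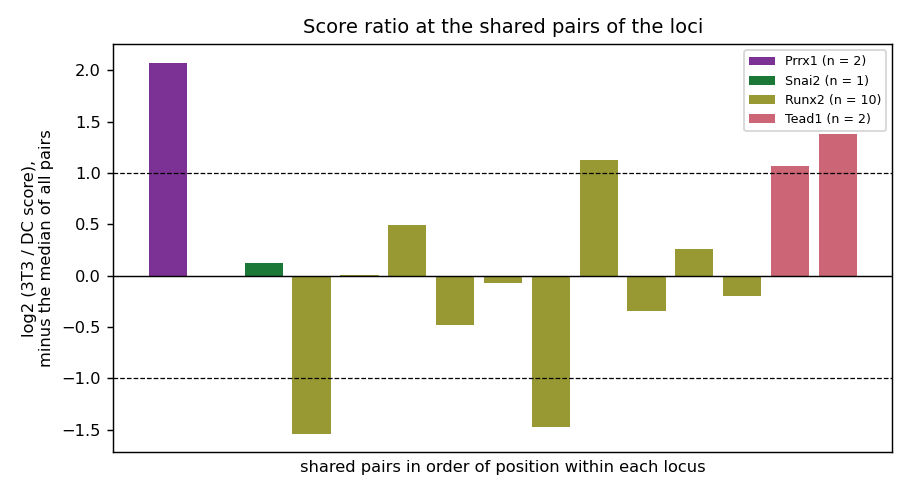
Log2 ratio of the 3T3 to the dendritic cell score at the 15 shared pairs, minus the median of all pairs, in order of position; dashed lines mark 2-fold. Of the 10 Runx2 bars 1 passes 2-fold toward 3T3 and 2 toward dendritic cells, and both Tead1 bars pass it toward 3T3.

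Beyond the borders the loci continued in different ways. In the 300 kb below the Tead1 interval there were 36 3T3 summits and 1 dendritic cell summit, and in the 300 kb above it 18 and 20. The one-sided marking thus extended below the interval and ended above it. For Runx2, the flanks of equal length held 14 3T3 and 16 dendritic cell summits below and 9 and 9 above, so that 43 and 30 in the locus exceeded both flanks in both cells. Below Prrx1 there were 8 3T3 summits and none of dendritic cells, and above it 11 and 3. Twist1 had 1 and 0 below and 10 and 2 above, and Snai2 had 0 and 1 below and 7 and 0 above. At both, the 3T3 count above the interval was higher than that inside.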

How the data were processed

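H3K4me1 was measured by ChIP-seq in unstimulated dendritic cells and unstimulated 3T3 cells, 1 library each. Per the labels' protocols, DNA from formaldehyde-fixed nuclei was sonicated to fragments of about 300 bp, given 18 cycles of PCR and read from 1 end over 36 bp. Per the submitters' processing notes, Bowtie did the alignment, MACS 1.4 the peak calling, and the build was mm9. The file headers record a p threshold of 1e-04, a shift of 150 bp and neither a fragment model nor a local background. The use of input is not stated in these sources. The authors deposited 1 position and 1 unnamed score per summit, which was taken as a signal, the peak height at the summit. All scores were whole numbers of at least 13, with no scaling between lists. No source used here gives read totals, and the depth is therefore unknown.

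Summits were assigned to the intervals by 1-based position. Shares carry exact Clopper-Pearson and counts exact Poisson intervals. Count ratios carry the exact binomial interval of the 3T3 share. In each locus the 3 highest summits of each list, dendritic cell summits and shared pairs up to 10, and the longest 3T3 stretch were to be named. A few further sites, such as the farthest summits, were chosen after their values were seen. The members and lists were chosen with earlier results of these data known. The overlap and pairing steps were tested on simulated data. The alternatives were other shared distances, top-scoring summits, merging of summits, other borders of the loci and omission of each locus. Computation used scipy 1.17.1 and pandas 2.3.3 with numpy 2.4.6, and plots matplotlib 3.10.9, all under Python 3.11.15.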

Additional observations from a re-analysis of the deposited data

How the results depend on the processing

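No paired analysis was possible because each cell type has 1 library. The count ratio over the loci kept its direction with the 39898 top-scoring summits of each list and with loci narrowed to 0.5 or widened to 2 times their length. Merging of summits within 1000 bp could not change the counts in the loci, where neighbours of 1 list lay at least 1721 bp apart. Omission of any 1 locus could not reverse the direction, because each locus had a ratio above that of the lists. Shared distances of 250, 500 and 2000 bp were tried for shares and pairs. Of the single loci, the Snai2 3T3 density of 3.33 per 100 kb was 0.67 among top-scoring summits and 6.67 in the narrowed locus. By locus, 13 of the 40 densities moved by over 1.5 times, and the 40 include the merged ones, which could not move. The 40 also include those of the top-scoring summits, which could only stay or fall because lower-scoring summits were left out. The median log2 score ratio of the shared pairs, 0.00, was -0.02, -0.02 and 0.07 at the other distances and 0.10 among top-scoring summits, within its interval. The share of summits without a counterpart moved with the distance. At 250 bp it was 84.4% of dendritic cell and 93.4% of 3T3 summits, and at 500 bp 80.0 and 91.5%. At 2000 bp it was lower, with 55.6% of dendritic cell and 81.1% of 3T3 summits. Among top-scoring summits it was 80.0% of dendritic cell summits, the densities were 1.88 (dendritic cells) and 4.59 (3T3) per 100 kb, and the median 3T3 score was 52, as fewer and higher summits enter. With each locus omitted in turn, the dendritic cell density ranged from 1.61 to 4.07, the 3T3 share without a dendritic cell summit from 81.9 to 92.1%, and the log2 count ratio from 0.78 to 2.03. The 1.61, 92.1% and 2.03 are without Runx2 and the 0.78 is without Tead1. The omission of loci for densities was chosen after seeing the data. Read depth is unknown for both lists, and a site without a summit may have fallen below the calling threshold.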
